A study of Mus musculus with 24 samples.

Results

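The genes described here are those of the cytotoxic granule on the immunology panel, Gzma, Gzmb and Prf1, together with the chemokine gene Ccl5. They were taken by name from the table of normalized values and make up 4 of its 547 genes. They were picked with their differences between the groups already known, so those differences are given as a description and carry no test. The tissue was the terminal ileum, the last stretch of the small intestine, from 24 C57BL/6 mice in week 7 of life, and RNA was counted with the nCounter GX mouse immunology panel, in which colour-coded probes hybridize to each transcript and are counted without amplification. The study asked how a single early course of a macrolide antibiotic compares with repeated courses. The 7 Control mice (4 male, 3 female) received no antibiotic. The 7 PAT1 mice (pulsed antibiotic treatment; 4 male, 3 female) received 1 course of tylosin, a macrolide, through the milk of their treated dam. The 10 PAT3 mice (4 male, 6 female) received that course and later ones, 3 in all. Whole litters were given 1 treatment and mice were housed by sex and group, so that litter and cage cannot be told apart from treatment. Each piece of ileum held epithelium, lymphocytes and other cells together, and in such bulk RNA fewer cells of a type and less RNA per cell cannot be told apart.

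Cytotoxic lymphocytes kill through granules that they release onto a target cell. Perforin, encoded by Prf1, forms pores in the target membrane, and granzyme A (Gzma) and granzyme B (Gzmb) are serine proteases that enter the target and drive its death. Ccl5, also known as RANTES, is a chemokine that activated and memory T cells and natural killer (NK) cells make in quantity, and it attracts other leukocytes through chemokine receptors. In the small intestine much of this gene set is carried by intraepithelial lymphocytes, T cells lodged between the enterocytes. Many of them bear CD8 alpha (Cd8a), and CD94 (Klrd1) is a lectin receptor of NK cells and of some of these T cells.

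The promoters of the granule genes are shown because Gzma and Gzmb moved together between mice, a relation not seen for Prf1 at its low counts. Runx3, a transcription factor of cytotoxic T cells, was also among the genes that fell. The windows run from 250 bases before to 50 bases after the start site in RefSeq, build GRCm38.p6, and were found for 3 of the 4 genes. Capitals mark the Runx motif, TGTGGT, searched on both strands (ACCACA is the same motif on the other strand).
Gzma, chr13:113100932-113101231, minus strand: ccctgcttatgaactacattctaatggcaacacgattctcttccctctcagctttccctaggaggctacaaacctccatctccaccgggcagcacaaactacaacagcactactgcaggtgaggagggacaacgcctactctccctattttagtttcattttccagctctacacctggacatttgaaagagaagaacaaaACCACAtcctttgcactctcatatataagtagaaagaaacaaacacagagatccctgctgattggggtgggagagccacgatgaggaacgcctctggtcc
Gzmb, chr14:56262285-56262584, minus strand: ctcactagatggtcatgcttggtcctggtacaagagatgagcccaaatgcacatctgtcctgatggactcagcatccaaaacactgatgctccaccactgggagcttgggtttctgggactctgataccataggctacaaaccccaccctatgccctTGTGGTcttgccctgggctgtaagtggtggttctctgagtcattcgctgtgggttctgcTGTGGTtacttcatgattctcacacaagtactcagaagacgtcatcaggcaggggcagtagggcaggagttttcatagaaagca
Prf1, chr10:61297586-61297885, plus strand: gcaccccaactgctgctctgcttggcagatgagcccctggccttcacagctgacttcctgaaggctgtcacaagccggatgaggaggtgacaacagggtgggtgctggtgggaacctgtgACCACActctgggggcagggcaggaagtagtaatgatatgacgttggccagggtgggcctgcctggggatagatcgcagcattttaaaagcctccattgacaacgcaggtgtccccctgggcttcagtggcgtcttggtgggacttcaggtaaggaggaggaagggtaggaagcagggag
The Gzma window held 1 Runx match, at offset -50 from the start site. The Gzmb window held 2, at -93 and -34, and the Prf1 window held 1, at -130. The motif was present in 16.8% of 32851 promoter windows of the same length. Of the other motifs searched on both strands, the AP-1 motif TGANTCA (7.81% of windows) and the GAS motif TTCNNNGAA (8.30%) had a match in Gzmb alone among the 3 windows, and GGTGTG of T-box factors (19.0%) and TATAAA (13.6%) had none in any of them. No motif overlapped another, and a match of letters describes the window and not a bound site.

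All values below are log2 normalized counts unless another scale is named. Probes differ in efficiency, so levels are compared between groups for each gene and not between genes. The mean of each of the 4 genes was highest in Control, lower in PAT1 and lowest in PAT3.

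Granzyme A had the widest range of the 4 genes. Gzma lay between 9.53 and 11.005 in Control (median 10.80), between 7.46 and 10.22 in PAT1 (median 9.24) and between 6.33 and 9.62 in PAT3 (median 8.21). In normalized counts these medians were 1785, 606 and 297. Of the treated mice, 5 of 7 PAT1 and 9 of 10 PAT3 mice were below the lowest Control, and every treated mouse was below the Control mean. Control mice had a mean of 10.60 ± 0.52 (SD, n = 7), PAT1 mice of 9.07 ± 0.87 (SD, n = 7) and PAT3 mice of 8.08 ± 0.92 (SD, n = 10). The mean difference from Control was -1.52 with a standard error (SE) of 0.40 in PAT1, a 2.88-fold lower level, and -2.52 (SE 0.37) in PAT3, a 5.72-fold lower level. PAT3 lay below PAT1 by a difference of -0.99 (SE 0.37), but only 2 of 10 PAT3 mice were below the lowest PAT1 mouse, so the ranges of these groups overlapped widely. Control replicate 4, at 9.53, was the lowest Control, and without it 7 of 7 PAT1 and 10 of 10 PAT3 mice were below every remaining Control.

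Granzyme B followed the same order. Gzmb lay between 6.88 and 8.54 in Control (median 8.23), between 5.10 and 7.57 in PAT1 (median 6.46) and between 4.58 and 7.04 in PAT3 (median 5.67), with median normalized counts of 300.0, 87.9 and 50.9. Below the lowest Control, again replicate 4, were 6 of 7 PAT1 and 9 of 10 PAT3 mice, and without that Control 6 of 7 and 10 of 10. The means were 8.01 ± 0.59 (SD, n = 7), 6.39 ± 0.76 (SD, n = 7) and 5.68 ± 0.65 (SD, n = 10). Gzmb was 3.08-fold lower in PAT1 (-1.62, SE 0.34) and 5.02-fold lower in PAT3 (-2.33, SE 0.31), and PAT3 differed from PAT1 by -0.71 (SE 0.31). A single PAT3 mouse was below the lowest PAT1 mouse.

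The chemokine Ccl5 had the narrowest Control range next to Prf1. It lay between 9.40 and 10.56 in Control (median 10.46), between 7.96 and 9.99 in PAT1 (median 8.94) and between 6.86 and 9.90 in PAT3 (median 8.13), with median normalized counts of 1405, 490 and 280. Control replicate 4 was once more the lowest Control, and 6 of 7 PAT1 and 9 of 10 PAT3 mice were below it; without it these counts were unchanged. The means were 10.24 ± 0.44 (SD, n = 7), 8.92 ± 0.63 (SD, n = 7) and 8.27 ± 0.80 (SD, n = 10). Ccl5 was 2.49-fold lower in PAT1 (-1.32, SE 0.34) and 3.92-fold lower in PAT3 (-1.97, SE 0.31), with a difference between the PAT groups of -0.65 (SE 0.31).

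Perforin differed from the other genes in its low level and its smaller difference. Prf1 lay between 3.94 and 4.69 in Control (median 4.41), between 2.96 and 4.90 in PAT1 (median 3.94) and between 2.71 and 4.36 in PAT3 (median 3.63), with median normalized counts of 21.2, 15.4 and 12.4. The PAT1 mice spread over the whole Control range, and 3 of 7 were below the lowest Control, whereas in PAT3 9 of 10 were. The means were 4.37 ± 0.27 (SD, n = 7), 4.03 ± 0.60 (SD, n = 7) and 3.44 ± 0.57 (SD, n = 10). Prf1 was 1.26-fold lower in PAT1 (-0.33, SE 0.26), a difference of little more than 1 SE, and 1.89-fold lower in PAT3 (-0.92, SE 0.24), and PAT3 differed from PAT1 by -0.59 (SE 0.24).

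**Figure D1:**
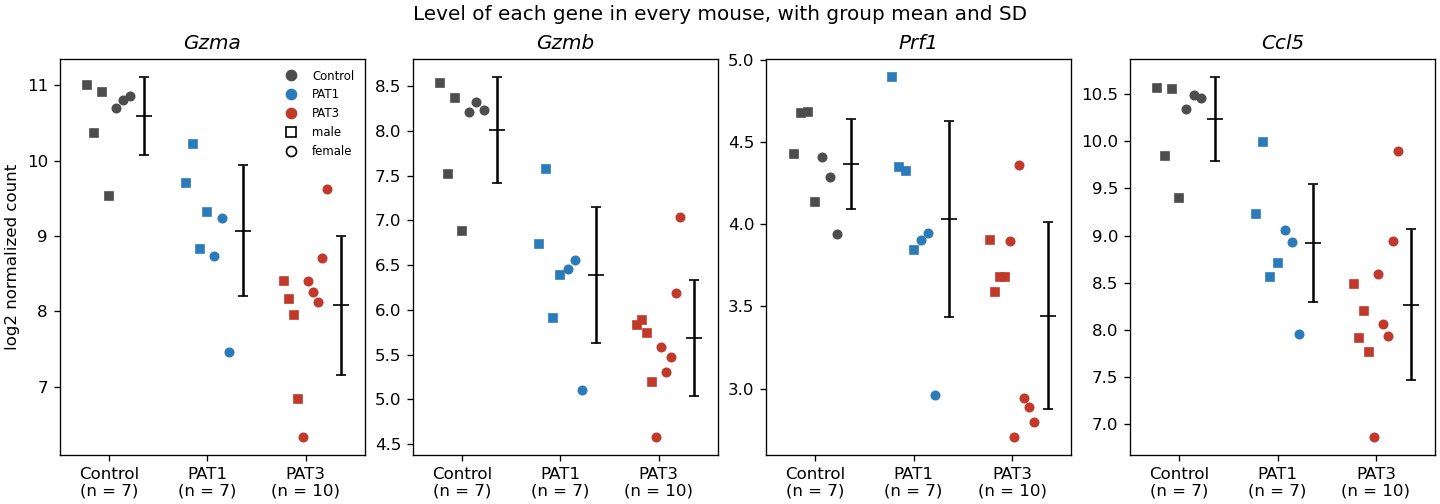
Level of Gzma, Gzmb, Prf1 and Ccl5 as log2 normalized counts (vertical axes, which do not start at 0) in each of 7 Control, 7 PAT1 and 10 PAT3 mice, with squares for males, circles for females and the group mean ± SD beside the points. The treated mice sit mostly below the Controls for Gzma, Gzmb and Ccl5, with Control replicate 4 lowest of its group at 9.53, 6.88 and 9.40, whereas the PAT1 mice overlap the Controls for Prf1.

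In the ranking of all 547 genes by difference from Control, starting from the lowest, Gzma was at place 6 in PAT1 and 2 in PAT3, Gzmb at 4 and 3, Ccl5 at 11 and 4, and Prf1 at 116 and 60. In the fit across all genes, 3 of the 4 genes passed the threshold in PAT1 (all but Prf1), where 18.5% of all genes did and 11.2% passed as lower. In PAT3 all 4 passed, where 31.8% of all genes did and 17.9% passed as lower. Since the genes were picked on these contrasts, nothing is read from these counts. None of the 4 genes had every treated mouse below every Control, a pattern that 3.84% of all genes showed in PAT1 and 7.31% in PAT3. The PAT1 and PAT3 differences share the same Control mice.

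Depth bore on Prf1 more than on the other genes. Totals per sample, recovered from the steps of the deposited values, ranged from 171671 counts in PAT1 replicate 1 to 782392 in PAT1 replicate 7, with a median of 580162. Before division by the size factor of the sample, Prf1 counts were 16 to 31 in Control, 11 to 16 in PAT1 and 6 to 19 in PAT3. Within PAT1 the Prf1 count therefore hardly varied while the depth did, and the correlation of Prf1 with the size factor was -0.94 over the 7 PAT1 mice and -0.60 over all 24 mice after removal of group means. For Gzma, Gzmb and Ccl5 the latter was -0.40, -0.32 and -0.31. Counting error alone came to 20.0% to 27.7% of the median Prf1 count by group, against at most 12.6% for Gzmb and 5.48% for Ccl5. When the size factor entered the fit, the Prf1 difference from Control was -0.62 in PAT1 and -0.98 in PAT3. In PAT1 it also moved by over 1.5 times when samples were re-centred on their median (-0.19) and without PAT1 replicate 7 (-0.15). Whether background was subtracted from the counts is not known. The part of background in the size of the Prf1 differences and ratios was not tested.

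**Figure D2:**
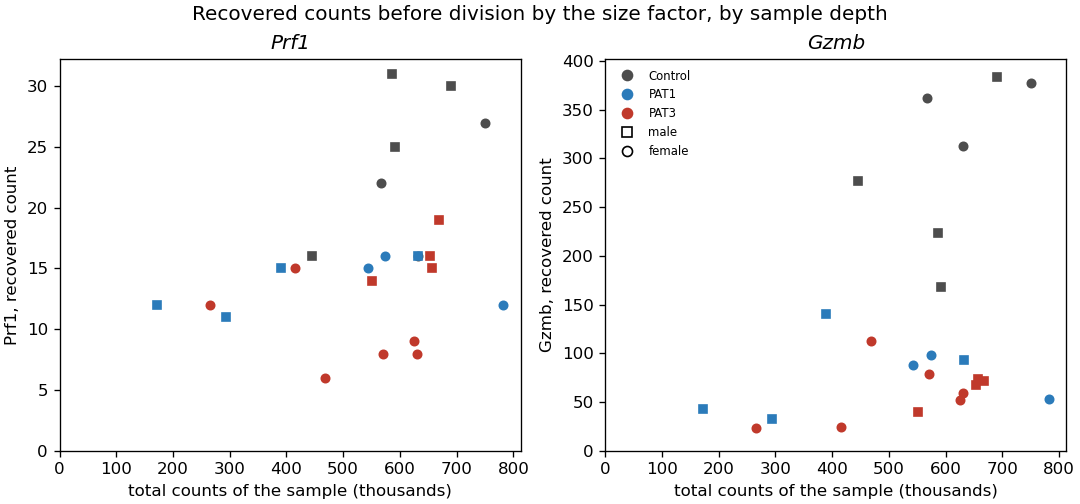
Recovered counts of Prf1 (left) and Gzmb (right), before division by the size factor, against the total count of each sample, for Control, PAT1 and PAT3 mice of both sexes. In PAT1, Prf1 counts stay between 11 and 16 over the whole range of depth, while Control samples reach 31.

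Single mice held their place across Gzma, Gzmb and Ccl5. PAT3 replicate 10, a female, was the highest PAT3 mouse for these 3 genes, at 9.62, 7.04 and 9.90. It was also the highest PAT3 mouse for Cd8a (6.59) and Klrd1 (6.26), yet among the lowest for Prf1 at 2.80. PAT3 replicate 5, also a female, was the lowest PAT3 mouse for the same 3 genes, at 6.33, 4.58 and 6.86, but had a Prf1 level of 3.90. Without PAT3 replicate 10 the PAT3 difference from Control was -2.69 for Gzma, -2.48 for Gzmb, -0.85 for Prf1 and -2.15 for Ccl5. PAT1 replicate 2 was the highest PAT1 mouse for Gzma, Gzmb and Ccl5, at 10.22, 7.57 and 9.99. PAT1 replicate 7 was the lowest PAT1 mouse for all 4 genes, at 7.46, 5.10, 2.96 and 7.96. This mouse had the deepest sample and the highest summed level of 9 B cell markers, 4747 normalized counts, in a group whose lowest sum was 151. Its sum of 13 T cell markers was also the highest in PAT1, at 1291 normalized counts. PAT1 replicate 2 came next in the group on both sums, at 1999 for B cell markers and 1152 for T cell markers. The part of these levels in the result was not tested.

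Removal of the group means left the variation between mice of 1 group and took out the group differences known when the genes were picked. Earlier results of these data were known at that choice, so the p-values of the correlations may not be independent of it. Over 24 mice, Gzma and Gzmb then correlated with a Pearson r of 0.92 (Spearman rho 0.85), Gzma and Ccl5 with 0.92 (rho 0.92), and Gzmb and Ccl5 with 0.94 (rho 0.89). Each had p = 1e-05, the smallest that 100000 permutations within groups can give, and an adjusted p of 4.67e-05 over 14 relations. Without the 2 mice farthest from the median, r was still 0.87, 0.87 and 0.92. For Prf1 r was 0.04 with Gzma (permutation p = 0.886), 0.03 with Gzmb (permutation p = 0.906) and -0.11 with Ccl5 (permutation p = 0.659). These signs turned under several other settings. The SD expected from counting alone was 0.31 log2 units for Prf1 in Control, 0.39 in PAT1 and 0.44 in PAT3. The SD between mice was 0.27, 0.60 and 0.57. With so much of the spread at the level of counting, these r cannot show whether Prf1 moves with the other genes.

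**Figure D3:**
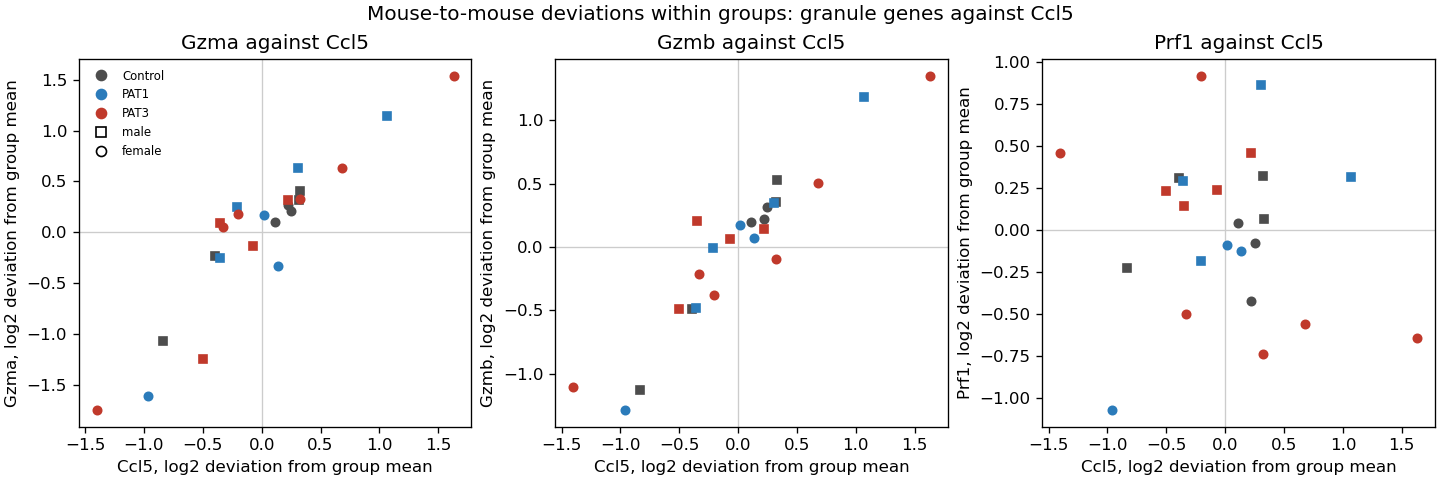
Deviation of each mouse from its group mean, in log2 units, for Gzma, Gzmb and Prf1 (vertical axes) against Ccl5 (horizontal axes), with colours for Control, PAT1 and PAT3 and squares for males. Points for Gzma and Gzmb follow a rising line (r = 0.92 and 0.94), and points for Prf1 do not (r = -0.11).

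The same deviations were set against the lymphocyte markers. Ccl5 followed Cd8a most closely (r = 0.79, rho = 0.80, permutation p = 6e-05, adjusted p = 0.00021), and r was 0.80 without the 2 mice farthest from the median of Cd8a. Gzmb (r = 0.66, rho = 0.66, permutation p = 0.00056, adjusted p = 0.00157) and Gzma (r = 0.65, rho = 0.73, permutation p = 0.00181, adjusted p = 0.00422) also rose with Cd8a, with r = 0.65 and 0.61 without those mice. Without PAT3 replicate 10 alone, r with Cd8a was 0.70 for Ccl5, 0.55 for Gzmb and 0.54 for Gzma, all still past the adjusted threshold. Prf1 gave r = -0.22 with Cd8a (rho = -0.15, permutation p = 0.347, adjusted p = 0.442). With Klrd1, Gzmb passed the adjustment narrowly and the other genes did not. Gzmb and Klrd1 had r = 0.48 (rho = 0.47, permutation p = 0.0224, adjusted p = 0.0447), which fell to 0.40 (adjusted p = 0.131) without the 2 farthest mice. For Gzma r was 0.45 (rho = 0.45, permutation p = 0.0490, adjusted p = 0.0857), for Ccl5 0.43 (rho = 0.41, permutation p = 0.0603, adjusted p = 0.0937) and for Prf1 0.26 (rho = 0.31, permutation p = 0.268, adjusted p = 0.375). Whether the correlations with Cd8a and with Klrd1 differ from each other was not tested.

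Within single groups the samples were few. In the 7 Controls, r with Cd8a was 0.89 for Gzma (exact permutation p = 0.0111), 0.88 for Gzmb (exact p = 0.0167) and 0.92 for Ccl5 (exact p = 0.00794). In the 10 PAT3 mice it was 0.73 for Gzma (permutation p = 0.0151), 0.71 for Gzmb (permutation p = 0.0198) and 0.82 for Ccl5 (permutation p = 0.00336). In the 7 PAT1 mice it was 0.32 for Gzma, 0.50 for Gzmb and 0.63 for Ccl5 (exact p = 0.487, 0.249 and 0.127). Over the 24 within-group relations none passed an adjusted p of 0.05 by Pearson r, where the lowest was 0.0792. By rank, Gzma and Cd8a in PAT3 did (rho = 0.93, adjusted p = 0.00984). Without the 2 mice farthest from the median of Cd8a, r in PAT1 was -0.14 for Gzma and 0.10 for Ccl5, so the PAT1 values rest on those mice, whereas in PAT3 r was 0.72 and 0.89. With Klrd1, rho in Control was 0.82 for Gzma, 0.86 for Gzmb and 0.86 for Ccl5, above the 0.64, 0.61 and 0.61 with Cd8a by rank, although r was 0.58, 0.59 and 0.61. In PAT1 r with Klrd1 was 0.51 for Gzma, 0.36 for Gzmb and 0.34 for Ccl5, and in PAT3 0.40, 0.53 and 0.43. The order of both markers therefore depended on the group and on the measure.

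**Figure D4:**
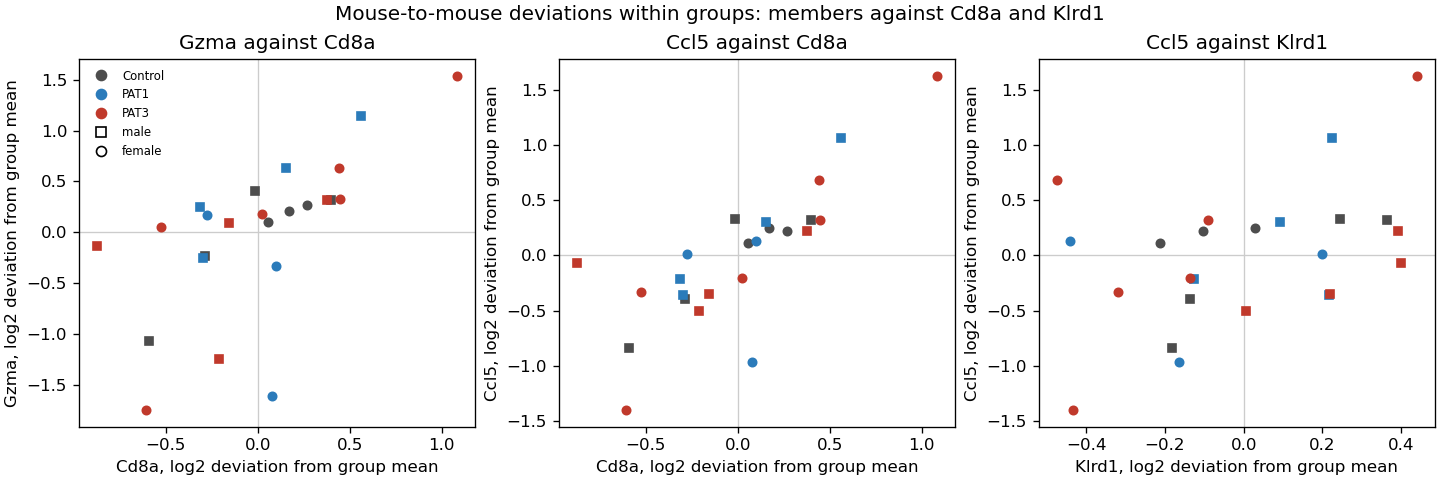
Deviation of each mouse from its group mean, in log2 units, for Gzma and Ccl5 against Cd8a and for Ccl5 against Klrd1, with colours for the 3 groups and squares for males. Ccl5 rises with Cd8a in Control and PAT3 (r = 0.92 and 0.82), with PAT1 replicate 7 far below the line, and is more scattered against Klrd1 (r = 0.43 over 24 mice).

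Among the 393 genes with a mean level of at least 5, the 5 whose deviations were most like those of each gene were named, with no test. For Gzma, after Gzmb and Ccl5, these were B2m (r = 0.84), the shared light chain of MHC class I, and the interferon-response genes Irf7 and Ifi35 (both 0.76). For Gzmb they were, beside Ccl5 and Gzma, the peptide transporter Tap1 (0.83), B2m (0.77) and Irf7 (0.72). For Ccl5 they were Tap1 (0.80), B2m (0.80) and Cd8a (0.79). Among these genes Cd8a stood at place 13 for Gzma, 12 for Gzmb and 5 for Ccl5, but at place 227 for Prf1. All of these deviations share the size factor of the sample, and with it regressed out r was 0.81 for Gzma and B2m and 0.85 for Gzmb and Tap1. The likeness to B2m depended on the scaling: after quantile normalization r was 0.21 for Gzma, 0.053 for Gzmb and 0.22 for Ccl5, and that of Gzmb and Tap1 was 0.68. The values for Irf7 and Ifi35 with Gzma stayed at 0.76.

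Likeness between mice of 1 group did not carry over to the difference between groups for all of these neighbours. Tap1 was lower in PAT1 (-0.80, SE 0.19, limma adjusted p = 0.00409) and in PAT3 (-1.24, SE 0.18, limma adjusted p = 7.87e-06), the direction of Gzmb and Ccl5. Irf7 was higher in PAT1 by 1.38 (SE 0.41, limma adjusted p = 0.0153), where Gzma was lower by a difference of -1.52, and its difference in PAT3 was 0.47 (SE 0.37, adjusted p = 0.353). Ifi35 was also higher in PAT1 by 0.65 (SE 0.23, limma adjusted p = 0.0495). B2m gave 0.18 (SE 0.18) in PAT1 and -0.32 (SE 0.17) in PAT3, neither past the threshold.

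The neighbours of Prf1 were of another kind. They were Tyrobp (0.70) and Fcer1g (0.66), adaptor proteins of NK and myeloid receptors, the Fc receptor gene Fcgr1 (0.63), and the chemokines Ccl11 (0.67) and Ccl8 (0.65). With the size factor regressed out these values fell to 0.52, 0.46, 0.47, 0.60 and 0.51, and after quantile normalization they were 0.40, 0.40, 0.51, 0.47 and 0.49. The low counts and the relation to depth given above apply to each of these values. Group means were removed here but sex means were not. Prf1 (-0.48, limma adjusted p = 0.304), Ccl8 (-1.05, limma adjusted p = 0.0267) and Fcgr1 (-0.35, limma adjusted p = 0.348) were each lower in females. The part of sex in these likenesses was not tested.

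The genes were also set against the markers sample by sample. The log2 ratio of Gzma to Cd8a had a Control mean of 3.25 ± 0.27 (SD, n = 7), a PAT1 mean of 2.67 ± 0.83 (SD, n = 7) and a PAT3 mean of 2.57 ± 0.63 (SD, n = 10), which is -0.58 and -0.67 from Control. For Gzmb to Cd8a the differences of the ratio from Control were -0.68 and -0.49, for Ccl5 to Cd8a -0.38 and -0.13, and for Prf1 to Cd8a 0.61 and 0.92. In PAT1 these shifts were within 1 SD of the ratio in that group for Gzma (SD 0.83), Ccl5 (SD 0.49) and Prf1 (SD 0.62), and just past it for Gzmb (SD 0.66). In PAT3 they were within 1 SD for Ccl5 (SD 0.46) and Prf1 (SD 0.99) and just past it for Gzma (SD 0.63) and Gzmb (SD 0.47). The Control SD was smaller, at 0.27 for Gzma, 0.33 for Gzmb, 0.42 for Prf1 and 0.18 for Ccl5. All of these shifts but that of Ccl5 in PAT3 were past it. These SDs are the spread of single mice and not the error of a mean. Below the lowest Control ratio to Cd8a were 3 of 7 PAT1 and 6 of 10 PAT3 mice for Gzma. The counts were 3 and 5 for Gzmb, 4 and 6 for Ccl5, and 0 and 1 for Prf1. Against Klrd1 the ratio differed from Control by -0.80 in PAT1 and -1.27 in PAT3 for Gzma, by -0.90 and -1.08 for Gzmb, and by -0.60 and -0.72 for Ccl5. Below the lowest Control ratio to Klrd1 were 2 of 7 PAT1 and 7 of 10 PAT3 mice for Gzma. The counts were 2 and 8 for Gzmb and 4 and 7 for Ccl5. Within the set, the ratio of Gzmb to Gzma differed from Control by -0.10 in PAT1 and 0.19 in PAT3, less than its SD of 0.28 and 0.43 there. Ccl5 was higher relative to Gzma by 0.21 in PAT1 (SD 0.41) and 0.55 in PAT3 (SD 0.36). Relative to Gzmb, Ccl5 was higher by 0.31 in PAT1 (SD 0.18) and 0.36 in PAT3 (SD 0.29). These ratios combine genes picked on the same contrasts and were not tested.

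Cd8a and Klrd1 themselves were lower in both groups. Cd8a lay between 6.76 and 7.74 in Control, 6.09 and 6.97 in PAT1, and 4.63 and 6.59 in PAT3, with differences from Control of -0.94 (SE 0.24, limma adjusted p = 0.00571) and -1.84 (SE 0.22, limma adjusted p = 6.32e-07). All 10 PAT3 mice were below every Control, as were 6 of 7 PAT1 mice. Klrd1 lay between 6.85 and 7.43 in Control, 5.90 and 6.57 in PAT1, and 5.35 and 6.26 in PAT3, so that no treated mouse overlapped the Controls. Its differences were -0.72 (SE 0.16, limma adjusted p = 0.00281) and -1.25 (SE 0.15, limma adjusted p = 6.32e-07). Over all genes, 3.84% had every PAT1 mouse below every Control, and 7.31% had every PAT3 mouse below every Control.

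The list of CD8 T, intraepithelial and NK cell markers had 13 genes in the table. In PAT1 4 of them fell, where 11.2% of all genes did, and none rose. The 4 were Cd8a, Klrd1, the chemokine gene Xcl1 (-0.70) and the IL-2 and IL-15 receptor chain Il2rb (-0.53). In PAT3 7 fell, where 17.9% of all genes did. They were the same genes with Xcl1 at -1.22 and Il2rb at -1.06, joined by the receptors Slamf7 (-1.07), Cd226 (-0.70) and Klrk1 (-0.50). When samples were re-centred on their median, Xcl1 and Il2rb in PAT1 and Klrk1 in PAT3 no longer passed, and Klrk1 also missed on leaving out any of 9 of the mice and Xcl1 in PAT1 without Control replicate 2. The NK receptor chains Klrc1 (-0.14) and Klrc2 (0.21) did not pass in PAT3. The median difference over the list was -0.42 in PAT1 and -0.70 in PAT3, against 0.01 and 0.03 over all genes. The summed level of these markers was 1204 to 1365 normalized counts in Control, 708 to 1126 in PAT1 and 581 to 834 in PAT3, and no marker was at 0 in all samples. These levels moved in the direction of the 4 genes, and their part in that difference was not tested.

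**Figure D5:**
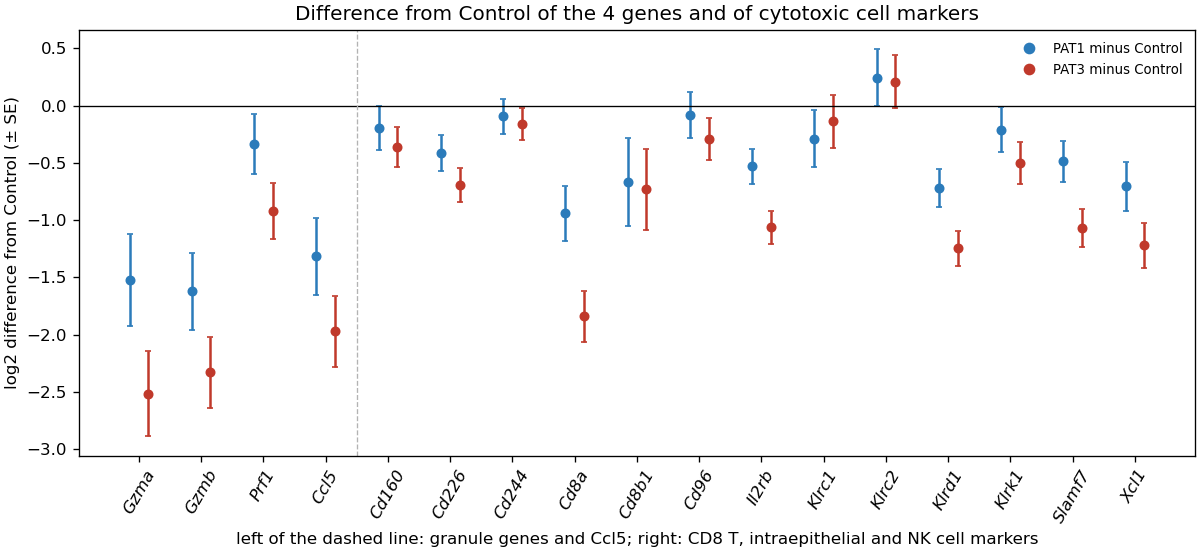
Difference from Control (log2 units, ± SE) in PAT1 and PAT3 for Gzma, Gzmb, Prf1 and Ccl5, left of the dashed line, and for the 13 CD8 T, intraepithelial and NK cell markers in the table, right of it. In each group Gzma, Gzmb and Ccl5 lie below every marker, the lowest of which is Cd8a at -0.94 in PAT1 and -1.84 in PAT3. The 4 genes were picked with these contrasts known, so nothing is read from this order. In PAT3 the SE bars of Ccl5 (-1.97, SE 0.31) and Cd8a (SE 0.22) overlap.

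Of 13 other T cell markers, 3 fell in PAT1, where 11.2% of all genes did, and 11 fell in PAT3, where 17.9% did, with none higher. Their summed level was 1087 to 1358 normalized counts in Control, 624 to 1291 in PAT1 and 440 to 811 in PAT3. Without PAT1 replicate 7, 5 of them fell in PAT1. Of 9 B cell markers none passed in PAT1 and 1 fell in PAT3, and of 9 myeloid markers 2 fell in each group. Of 7 mast cell and neutrophil markers none passed in PAT1 and 1 rose and 1 fell in PAT3. Of 10 epithelial markers 2 rose and 3 fell in each group, where 7.31% of all genes rose in PAT1 and 13.9% in PAT3. Their sums were 97327 to 197674 normalized counts in Control, 114074 to 189753 in PAT1 and 122777 to 173799 in PAT3. The sums overlapped between groups. They add markers that rose and markers that fell, so their overlap does not show equal epithelial content.

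Of the rest of the killing pathway 11 genes were measured and 9 on the list, among them Gzmk, Gzmm and Srgn, were not analysed here. None of the 11 fell in either group by limma, where 11.2% of all genes did in PAT1 and 17.9% in PAT3, and the list was not tested against the granzymes. At an unadjusted p under 0.05 by limma, Ifng alone was lower, in PAT3. Ifng and Fasl were each below the Control mean in 9 of 10 PAT3 mice. In PAT1 3 rose, namely Bid (0.75, SE 0.17), which granzyme B cleaves in target cells, its partner Bax (0.58, SE 0.17) and the cytokine gene Lta (0.89, SE 0.30), and in PAT3 Bid alone rose (0.62, SE 0.16). Over all genes 7.31% rose in PAT1 and 13.9% in PAT3. Lta missed the threshold on leaving out any of 7 of the mice. Ctsc, the protease that activates granzymes, differed by -0.15 (SE 0.13) and -0.13 (SE 0.12), and the death ligand Fasl by -0.10 (SE 0.27) and -0.32 (SE 0.25). Interferon gamma (Ifng), which the same cells secrete, differed by -0.15 (SE 0.26) in PAT1 and -0.55 (SE 0.24, limma adjusted p = 0.0746) in PAT3, and lay near 3 on the log2 scale in every group. In PAT3 Ifng passed as lower (-0.71 to -0.61) without Control replicate 4, Control replicate 7, PAT3 replicate 2 or PAT3 replicate 7, and Ctsc did after quantile normalization (-0.27). The median over the list was -0.04 in PAT1 and -0.10 in PAT3.

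For Ccl5, 10 receptors and related ligands were measured, of which 1 rose and 1 fell in PAT1 and 1 rose and 2 fell in PAT3. Of the list 20% passed in PAT1 and 30% in PAT3, near the 18.5% and 31.8% of all genes. Ccl11 (eotaxin), which acts on Ccr3, rose by 0.77 (SE 0.21) in PAT1 and 0.84 (SE 0.19) in PAT3. Ccl8 differed by -1.75 (SE 0.39) and -1.59 (SE 0.36). It was also lower in females than in males (-1.05, limma adjusted p = 0.0267). Females were a larger share of PAT3 than of Control, while PAT1 had the same split as Control. With sex as a covariate Ccl8 still passed in both groups. Ccl4, a chemokine that cytotoxic T cells also secrete, passed in PAT3 alone (-0.71, SE 0.27), with -0.42 (SE 0.29) in PAT1, and missed the threshold on leaving out any of 15 of the mice. The receptor Ccr3 differed by 0.56 (SE 0.27) and 0.36 (SE 0.25) and did not pass. The median over the list was 0.00 in PAT1 and -0.12 in PAT3.

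Factors and cytokines that control cytotoxic genes made up a list of 27 measured genes, of which 1 rose and 5 fell in PAT1 and 2 rose and 12 fell in PAT3. Of the list 22.2% passed in PAT1 and 51.85% in PAT3, against 18.5% and 31.8% of all genes. The transcription factors Tbx21 (T-bet) and Runx3, which drive cytotoxic genes in CD8 T cells, differed by -0.65 (SE 0.16) and -0.62 (SE 0.18) in PAT1 and by -0.60 (SE 0.14) and -1.04 (SE 0.16) in PAT3. Eomes, a relative of T-bet, was at -0.03 (SE 0.33) and -0.45 (SE 0.30) and did not pass. The kinase gene Jak3, which serves the common gamma chain receptors, fell in both groups (-0.88 and -0.65). Irf1 (-0.66 and -0.63), a factor of the interferon response, also fell in both. With samples re-centred on their median, Tbx21 passed in neither group, Runx3 and Irf1 missed in PAT1 and Jak3 in PAT3, all in the same direction. Jak3 also missed in PAT1 when the size factor was added to the fit (-0.57), in PAT3 after quantile normalization and on leaving out any of 11 of the mice, and in both groups by the methods' test.

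In PAT3 Prdm1 (-0.66), Stat4 (-0.78), Irf4 (-0.93), Il12rb2 (-0.79), Il18 (-1.05), Il21r (-1.37) and Il2rg (-0.73) passed as well and in PAT1 they did not, which does not show that PAT1 and PAT3 differ. Prdm1 (-0.71) and Il18 (-0.69) were just short of the threshold in PAT1 (limma adjusted p = 0.0525 for each), and passed there with voom, with a filter on low values, and with sex or the size factor as a covariate. In PAT3 Prdm1 missed when re-centred, after quantile normalization, by the methods' test and on leaving out any of 8 of the mice. Il15, the cytokine that sustains intraepithelial and NK cells, went the other way, up by 1.21 (SE 0.23) in PAT1 and 0.96 (SE 0.21) in PAT3, while its receptor chain Il2rb fell in both groups. Il18r1 rose in PAT3 by 0.54 (SE 0.16). The list median was -0.32 in PAT1 and -0.41 in PAT3.

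Sex had no bearing on how the genes were picked and was tested in the fit across all genes. Females minus males, with treatment in the fit, gave -0.04 (SE 0.32) for Gzma, -0.04 (SE 0.27) for Gzmb and 0.08 (SE 0.26) for Ccl5, with limma adjusted p = 0.980, 0.980 and 0.947. Prf1 was lower in females by a difference of -0.48 (SE 0.18), with p = 0.0142 by limma before and 0.304 after adjustment over all genes. Its mean was lower in females in each of the 3 groups, 4.21 against 4.48 in Control, 3.60 against 4.35 in PAT1 and 3.27 against 3.71 in PAT3. By limma, 2 genes (0.366%) passed for sex over the whole table, with 64 at an unadjusted p under 0.05. Ccl8 was among the 2, lower in females (-1.05, SE 0.23, limma adjusted p = 0.0267).

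Whether the difference from Control depended on sex was tested by limma's F-test over both treatments, which gave adjusted p = 0.420 for Gzma, 0.587 for Gzmb, 0.794 for Prf1 and 0.661 for Ccl5, with 1 gene (0.183%) past the threshold over the table and 100 at an unadjusted p under 0.05. For Gzma the PAT1 difference was more negative in females than in males by -1.37, with an SE of 0.80. Male PAT1 mice averaged 9.52 ± 0.59 (SD, n = 4) and female PAT1 mice 8.48 ± 0.92 (SD, n = 3), against 10.45 ± 0.68 (SD, n = 4) and 10.79 ± 0.09 (SD, n = 3) in Control. In fits to single sexes the Gzma difference in PAT1 was -2.31 in females and -0.94 in males, and that of Prf1 was -0.61 and -0.13. With 3 females in Control and 3 in PAT1, these differences between the sexes did not pass the F-test.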

How the data were processed

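NanoString counts of 547 genes were analysed in 24 mice, grouped by the treatment given in the labels; a figure legend of the study divides the treated mice slightly differently between PAT1 and PAT3, and the labels were followed. The authors normalized the counts with DESeq2 and deposited log2 values, in which a count of 0 is listed as 0 (19 values). Within a tolerance of 0.01 counts, 100% of deposited log2 values were whole multiples of a step per sample, which gave recovered counts and totals from 171671 to 782392. Counting error was 1 over the square root of the median count. Whether background was subtracted is not given in the sources used here. The labels name TRIzol with a column cleanup and the study's methods a Qiagen kit for RNA extraction. No pair of the 276 sample pairs agreed within sampling noise (closest chi-square 3.98 per degree of freedom).

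Genes were fitted with limma 3.58.1 (lmFit and eBayes, R 4.3.3) on the log2 values over all samples, with no filter or pseudocount, and Benjamini-Hochberg adjustment over 547 genes at a threshold of 0.05; genes past it rose, fell or passed. The steps were tested on simulated data. Correlations used two-sided permutations, 100000 within groups or exact for 7 mice. The 4 genes and the 9 gene lists were chosen with earlier results of these data known. Named were the 4 genes, Cd8a, Klrd1, passing genes of 4 lists, others with values only, and the 5 most alike genes per member. Alternatives covered scaling, quantile normalization, voom, the methods' test, sex or size factor as covariates, low-value filters and leaving out each mouse. For the differences of the 4 genes, voom, the methods' test and the low-value filter were not compared. Promoters came from RefSeq. Litter and cage were not analysed here, and single values of some list genes are not reported here.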

Additional observations from a re-analysis of the deposited data

Results flagged for a closer look

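Gzma in Control replicate 4, at 9.53 log2 normalized counts, lay apart from the other 6 Control mice. Its gap to the nearest Control was 0.570 of the range of the group, just above the critical value of Dixon's test for 7 mice. Chance gives such a gap in about 1 in 20 groups, and this was 1 of 18 groups of values examined. The same mouse was the lowest Control for Gzmb (6.88), Ccl5 (9.40) and Cd8a (6.76), but not for Klrd1 or Prf1.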

How the results depend on the processing

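The differences of Gzma, Gzmb, Prf1 and Ccl5 from Control kept their direction and moved by less than the pooled within-group SD of the gene. This held for 56 values with other settings and 192 with 1 mouse left out. The settings were re-centring, quantile normalization, a pseudocount of 1, sex or size factor as a covariate, and each sex alone. Voom, the methods' test and the low-value filter were not compared for these genes. Leaving out a mouse of the other PAT group cannot change a difference from Control, so those of the 192 values were fixed in advance. The moves of over 1.5 times were of Gzma in PAT1 (-2.31 in females and -0.94 in males alone) and of Prf1 in PAT1. Leaving out 1 mouse gave -1.71 to -1.26 for Gzma in PAT1 and -0.48 to -0.15 for Prf1 in PAT1. Correlations among Gzma, Gzmb and Ccl5 and with Cd8a stayed past the threshold throughout. No paired analysis was possible because replicate numbers follow only the order of the samples. Re-centring each sample on its median added 0.14 in PAT1 and 0.19 in PAT3 to every difference and gave 2 called genes in the killing pathway in PAT3, 2 CD8 T and NK markers in PAT1 and 3 regulators in PAT1; quantile normalization also gave 2 for the first. With 1 mouse left out that first count was 1 to 2 (2 without PAT3 replicate 2, PAT3 replicate 7, Control replicate 4 or Control replicate 7), and T cell markers in PAT1 gave 3 to 5 (5 without PAT1 replicate 7). With the size factor as a covariate 4 genes of the Ccl5 receptor list passed in PAT1. Among single list genes, 70 values with 1 mouse left out and 32 with another setting lost the threshold, and 21 and 17 gained it. Lta in PAT3 turned to 0.0470 (re-centred) and 0.0279 (quantile). The cause was not tested.

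Sex differences near 0 turned sign: Gzma 0.0516 and Gzmb 0.0187 with the size factor, Ccl5 -0.00733 with quantile normalization, and -0.19 to 0.16, -0.15 to 0.11 and -0.0448 to 0.204 with 1 mouse left out. Correlations with Klrd1 depended on the setting. For Gzma r was 0.61 (re-centred), 0.52 (quantile) and 0.62 (sex means removed), and for Ccl5 0.58, 0.51 and 0.61, all then past the threshold. With 1 mouse left out r was 0.34 to 0.57 for Gzma and 0.31 to 0.58 for Ccl5, past it only without PAT3 replicate 9. Gzmb gave 0.45 (size factor regressed out), 0.40 (without the 2 farthest mice) and 0.39 to 0.60 with 1 mouse left out, and missed the threshold on leaving out any of 14 of the 24 mice, furthest without PAT3 replicate 10. Prf1 and Klrd1 gave -0.0113 with sex means removed. Prf1 turned sign with Gzma (-0.0549 quantile, -0.0644 sex means removed, -0.28 size factor, -0.26 without the 2 farthest mice, -0.25 to 0.19 with 1 left out), with Gzmb (-0.0183, -0.0619, -0.219, -0.17 and -0.25 to 0.19) and with Ccl5 (0.0596 re-centred, 0.19 without the 2 farthest mice, -0.338 to 0.0693 with 1 left out). Depth limits Prf1, with at most 31 counts per sample.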
